A study of Arabidopsis thaliana with 6 samples.

Results

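Arabidopsis carries a large family of beta-glucosidases, enzymes of glycoside hydrolase family 1 that release glucose from small glucosides, and the 10 members with the brightest array signals in roots are described here in spy-3 and wild-type seedlings. Genes were taken where a symbol or synonym reads BGLU followed by a number and where a probe set, the group of short oligonucleotides that measures a transcript on the Affymetrix ATH1 array, was annotated to that gene alone. Of 47 BGLU genes in the RefSeq table, 22 met this condition, and the 10 with the highest mean signal over all 6 arrays were kept. They are PYK10 (also called BGLU23), BGLU16, BGLU25, BGLU15, BGLU42, BGLU46, BGLU45, BGLU44, BGLU40 and BGLU41. RNA came from whole roots of seedlings of 7 days, either spy-3 (3 arrays) or wild type (3 arrays). Both genotypes are in the Col ecotype, and all seedlings grew untreated on vertical MS agar plates under the same long-day light. SPY encodes an O-linked sugar transferase that restrains gibberellin signaling, and the labels do not state the lesion in spy-3. The comparison asks which transcripts differ in the mutant root.

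Many plant glucosides are inactive stores or transport forms of defence compounds, lignin precursors and hormones, kept apart from the beta-glucosidases that cleave them. When cells are damaged, or when the enzyme and its substrate meet in the wall or the vacuole, the glucose is removed and the active compound is freed. Roots of Brassicaceae are known for ER bodies, spindle-shaped compartments of the endoplasmic reticulum packed with the beta-glucosidase PYK10. Other family members act on coumarin glucosides released to the soil, on monolignol glucosides of lignifying tissue, on flavonol glycosides or on wall-derived oligosaccharides.

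The values are linear MAS5 signals, which the authors had scaled so that the arrays share a trimmed mean. The array medians lay between 85.4 and 87.2, and arrays of the same genotype correlated with a Pearson coefficient of 0.958 to 0.966 across probe sets, against 0.952 to 0.963 between genotypes. Genotypes were compared on the log2 scale by limma, the p-values were adjusted over the 22746 probe sets (Benjamini-Hochberg), and a gene is said to have fallen or risen at an adjusted p of 0.05. SPY itself had a signal of 285.3 ± 36.7 in spy-3 and 267.4 ± 21.8 in wild type (SD, n = 3 each), and its adjusted p from limma was 0.728. This level does not check the genotype labels, since a mutant allele can leave its transcript in place. The RNA is from whole roots, so fewer cells of a type and less transcript per cell cannot be told apart. Of the marker lists, both measured root hair genes had bright signals and 3 green tissue genes were measured. For the 7 listed markers of other root tissues, the annotation used names no single-gene probe set. That annotation gives a single gene for 13513 of the 22746 probe sets, so a gene not measured here may still be on the array.

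Of the 10 beta-glucosidase genes, 3 fell in spy-3, namely BGLU16, BGLU15 and BGLU46, 0 rose and 7 did not pass the test. Their decreases were modest, with BGLU16 1.24-fold, BGLU15 1.19-fold and BGLU46 1.26-fold lower in spy-3. Over all probe sets, 3.13% fell by the same rule and 2.64% rose, and among the 16199 probe sets at least as bright as the dimmest of the 10 genes, 4.25% fell. The median log2 fold change of the 10 genes was -0.15, against 0.02 over all probe sets. Below 0 were 9 of the 10 values, against 10612 of all 22746 probe sets. The values of PYK10, BGLU25, BGLU42 and BGLU40 were only -0.05 to -0.02, and each turned sign when certain arrays were left out. All 3 spy-3 values lay below all 3 wild-type values for 5 of the 10 genes. Over all probe sets, 24.2% did not overlap between genotypes, 11.5% lower and 12.7% higher in spy-3. Among the 16199 probe sets at least as bright, 2331 were lower and 2498 higher in spy-3 without overlap. None of the 10 genes had all spy-3 values above wild type. At an unadjusted p of 0.05, limma counted 5 of the 10, all of them lower, with BGLU45 and BGLU44 beside the 3 called genes. In either direction, 19.2% of all probe sets passed, and 3889 of the 16199 at least as bright. None of the 10 passed an adjusted p of 0.01 with a fold change of 1.5, which 1.24% of probe sets did. The calls of BGLU16, BGLU15 and BGLU46 were all lost when spy-3 replicate 2 or 3 or wild type replicate 1, 2 or 3 was left out, and without spy-3 replicate 1 BGLU15 was lost (adjusted p from limma 0.0502 to 0.117 over these omissions where a call was lost). They were also lost when limma was run with no trend of variance on signal, and by analysis of variance run separately for every probe set. The paper's methods name an analysis of variance after an earlier study without giving its form, so this form may differ from theirs.

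**Figure D1:**
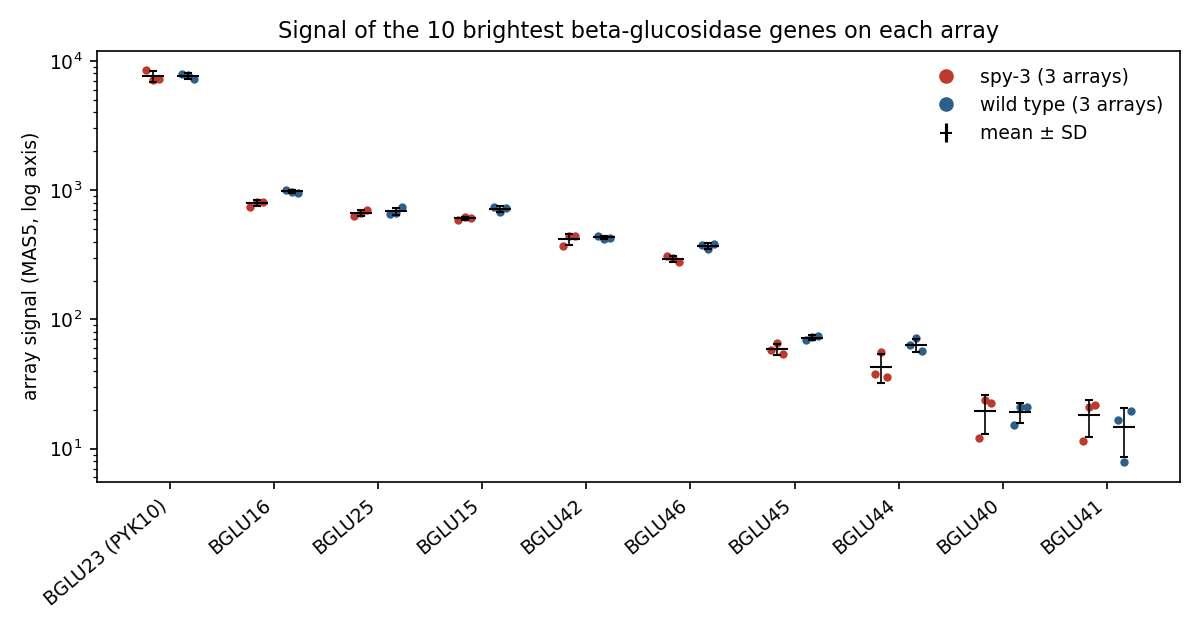
Array signal (MAS5, log axis) of the 10 brightest beta-glucosidase genes on each spy-3 and wild-type array, with points for arrays and bars for the mean ± SD (n = 3 each). PYK10 averaged 7600.8 in spy-3 and 7671.2 in wild type, and spy-3 points lie below all wild-type points for BGLU16, BGLU15, BGLU46, BGLU45 and BGLU44.

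The order of the signals is the measure that chose the genes and is given as a description. A probe set's brightness depends on its oligonucleotides as well as on the transcript, so the order is that of signals and not of transcript amounts. Among the 10 genes, PYK10 stood far apart from the rest, at rank 26 of all 22746 probe sets and brighter than 99.9% of them. This gap depends on the single-gene condition. A probe set shared by BGLU21 and BGLU22, left out by that condition, had a mean signal of 5309.2, at rank 130. The 6 values of PYK10 did not overlap those of BGLU16, nor those of BGLU16 with BGLU25, of BGLU15 with BGLU42, of BGLU46 with BGLU45, or of BGLU44 with BGLU40. The neighbours BGLU25 and BGLU15, BGLU42 and BGLU46, BGLU45 and BGLU44, and BGLU40 and BGLU41 had overlapping values. BGLU40 and BGLU41 were dim, brighter than 30.3% and 28.6% of probe sets. At the lower limit of the choice, BGLU41 had a mean signal of 16.4 and was kept, while BGLU47, with 14.8, and BGLU24, with 9.1, were left out. The values of BGLU41 (7.9 to 21.8) and BGLU47 (10.1 to 19.2) overlapped, so the last place is not firmly resolved. The same 10 genes were found when the mean was taken over log2 signals.

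PYK10, the main ER body enzyme of roots, which cleaves the coumarin glucoside scopolin and indole glucosinolates, had nearly the same mean in both genotypes. Its signals were 8449.7, 7091.7 and 7261.1 in spy-3 and 7952.9, 7810.5 and 7250.2 in wild type. The highest and the lowest of the 6 values were both from spy-3, so the genotypes overlapped fully. The log2 fold change was -0.02, with a 95% interval of -0.21 to 0.18 (limma, adjusted p = 0.947). BGLU25, a member of the same ER body subfamily by sequence, had signals of 632.5, 661.5 and 701.5 in spy-3 and 655.5, 669.2 and 736.9 in wild type. These also overlapped, with a log2 fold change of -0.05 and an interval of -0.19 to 0.10 (limma, adjusted p = 0.748).

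Transcripts of proteins that build ER bodies or bind PYK10 were compared next. Of 14 genes listed for them, 6 were measured, of which 1 rose, 0 fell and 5 did not pass, with a median log2 fold change of 0.04. At an unadjusted p of 0.05, limma counted 2 of these 6, JAL22 and JAL33, both higher, against 19.2% of all probe sets in either direction. NAI1, the transcription factor needed for PYK10 expression and ER bodies, averaged 221.9 ± 0.9 in spy-3 and 229.4 ± 8.9 in wild type (SD, n = 3 each), and NAI2, a structural protein of ER bodies, averaged 3574.5 ± 112.4 in spy-3 and 3695.4 ± 153.7 in wild type (SD, n = 3 each). The spy-3 values of NAI1 lay just below those of wild type and those of NAI2 overlapped, and the adjusted p from limma were 0.671 for NAI1 and 0.66 for NAI2. The gene that rose was JAL22, a jacalin-related lectin of the kind found in PYK10 aggregates. JAL22 had signals of 495.9, 499.3 and 498.6 in spy-3 and 378.0, 353.7 and 336.3 in wild type, well separated between genotypes. Its log2 fold change was 0.49 (limma, adjusted p = 0.00439), and it passed with each array left out in turn. Of the other lectins of the list, JAL33 had a log2 fold change of 0.12 and JAL34 one of -0.11 (limma, adjusted p = 0.139 and 0.351). The genotypes did not overlap for either, JAL33 being higher and JAL34 lower in spy-3. JAL23 was dim and overlapped, at 4.9, 9.4 and 8.2 in spy-3 and 3.3, 0.8 and 13.7 in wild type.

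BGLU42, which takes part in the release of coumarins such as scopoletin under iron shortage and in root responses to beneficial microbes, did not differ beyond its spread. Its signals were 367.6, 444.4 and 440.8 in spy-3 and 444.3, 421.8 and 428.4 in wild type. The wild-type values lay within the range of the spy-3 values, whose lowest was replicate 1. The log2 fold change was -0.05, with an interval of -0.24 to 0.14 (limma, adjusted p = 0.789). Of 10 genes listed for coumarin synthesis, export and iron uptake, 4 were measured, of which 1 fell and 0 rose (at an unadjusted p of 0.05, limma counted 2, both lower, against 19.2% of all probe sets in either direction). The one that fell was F6'H2 (AT1G55290), a feruloyl-CoA hydroxylase of coumarin synthesis, with 93.7, 80.2 and 97.1 in spy-3 and 157.3, 148.9 and 121.1 in wild type. Its log2 fold change was -0.65 (limma, adjusted p = 0.0396). The call was kept in only 1 of 6 omissions of an array, that of wild type replicate 3, with adjusted p from 0.0368 to 0.151 over all 6. The main root enzyme of that step, F6'H1 (AT3G13610), had 754.9, 900.6 and 816.7 in spy-3 and 1050.2, 983.3 and 980.6 in wild type. These values did not overlap, but the adjusted p from limma was 0.0735 for AT3G13610, with a log2 fold change of -0.29. COSY (AT1G28680), which closes the coumarin ring, had a log2 fold change of 0.15 (limma, adjusted p = 0.299). S8H (AT3G12900), which makes fraxetin, was near the lowest signals, at 1.8 to 16.2 in spy-3 and 14.0 to 24.9 in wild type.

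BGLU46 and BGLU45 encode enzymes that cleave monolignol glucosides such as coniferin, and the genes are immediate neighbours on chromosome 1 in the RefSeq annotation. BGLU46 had signals of 309.5, 297.4 and 277.4 in spy-3 and 375.0, 350.3 and 385.2 in wild type. The genotypes did not overlap, and BGLU46 fell by 0.33 on the log2 scale, with a 95% interval of -0.47 to -0.18 (limma, adjusted p = 0.0297). BGLU45 had signals of 58.0, 65.3 and 54.1 in spy-3 and 69.0, 73.4 and 74.9 in wild type. They did not overlap either, and the log2 fold change of BGLU45 was -0.30, with an interval of -0.59 to -0.01 (limma, adjusted p = 0.251). The interval of BGLU46 lies within that of BGLU45, and the difference between these neighbours was not tested.

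Of 19 genes listed for monolignol and lignin synthesis, 4 were measured, of which 1 fell and 0 rose (at an unadjusted p of 0.05, limma counted 2, UGT72E1 lower and UGT72E2 higher, against 19.2% of all probe sets). UGT72E1, 1 of 3 measured glucosyltransferases that attach glucose to monolignols or their aldehydes, had 278.0, 286.2 and 278.4 in spy-3 and 401.8, 384.5 and 376.0 in wild type. It fell by 0.46 on the log2 scale (limma, adjusted p = 0.00284) and passed with each array left out in turn. Its paralog UGT72E2, which acts on coniferyl and sinapyl alcohol, had 957.3, 1170.1 and 1207.3 in spy-3 and 821.2, 761.4 and 917.3 in wild type. The UGT72E2 values did not overlap and were higher in spy-3, but the log2 fold change of 0.41 did not pass (limma, adjusted p = 0.091). UGT72E3 and the acyltransferase HCT had log2 fold changes of 0.05 and 0.07 (limma, adjusted p = 0.807 and 0.599).

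BGLU16 and BGLU15, of which BGLU15 cleaves glucose from flavonol bisglycosides, both fell in spy-3. BGLU16 had signals of 744.5, 816.1 and 816.0 in spy-3 and 1007.3, 971.3 and 957.3 in wild type. The highest spy-3 value was below the lowest wild-type value, and BGLU16 fell by 0.31 on the log2 scale, with an interval of -0.42 to -0.19 (limma, adjusted p = 0.0182). BGLU15 had signals of 587.0, 618.3 and 609.3 in spy-3 and 746.0, 680.2 and 724.7 in wild type. Again the genotypes did not overlap, and BGLU15 fell by 0.24, with an interval of -0.36 to -0.13 (limma, adjusted p = 0.0343). Each lies next to other family members in the RefSeq annotation, BGLU16 between BGLU27 and BGLU30 on chromosome 3 and BGLU15 beside BGLU28 on chromosome 2. The measured neighbours were dim. BGLU27 had 11.7, 8.1 and 8.1 in spy-3 and 6.6, 5.5 and 13.9 in wild type, and BGLU28 had 8.1, 5.8 and 0.4 in spy-3 and 5.0, 0.6 and 1.9 in wild type. BGLU30 had no probe set of its own in the annotation and is not analysed here.

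BGLU44, an enzyme active on mannose-containing oligosaccharides, had lower signals in spy-3 that did not pass the test. Its signals were 38.1, 55.6 and 35.8 in spy-3 and 62.9, 71.2 and 56.7 in wild type. The genotypes came close to each other without overlapping, with 55.6 on spy-3 replicate 2 against 56.7 on wild type replicate 3. The log2 fold change of BGLU44 was -0.58, with an interval of -1.09 to -0.07 (limma, adjusted p = 0.201), and with an offset of 64 it was -0.26. Its neighbour BGLU43 on chromosome 3 was dim, with values from 0.6 to 18.4 in spy-3 and from 4.0 to 12.9 in wild type.

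BGLU40 and BGLU41 could not be compared with any precision. BGLU40 had 12.0, 23.6 and 22.7 in spy-3 and 15.2, 21.0 and 21.2 in wild type. BGLU41 had 11.4, 21.1 and 21.8 in spy-3 and 16.6, 7.9 and 19.5 in wild type. The genotypes overlapped for both genes. The 95% interval of the log2 fold change ran from -0.90 to 0.85 for BGLU40 and from -0.79 to 1.48 for BGLU41 (limma, adjusted p = 0.985 and 0.758), so a change as large as those of BGLU16 or BGLU46 was not detectable at these signals.

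**Figure D2:**
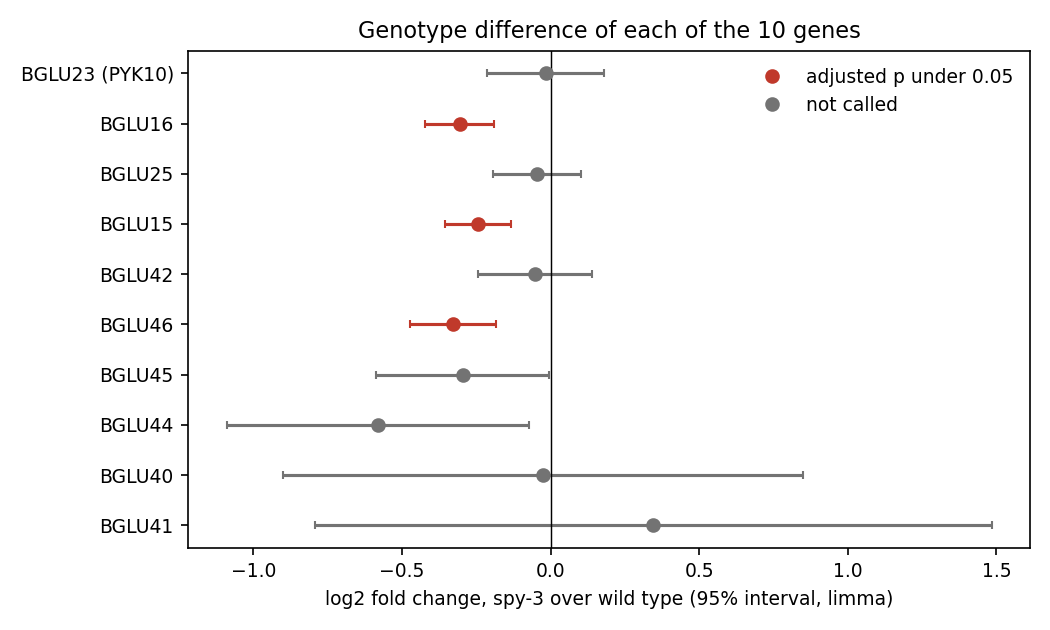
Log2 fold change of spy-3 over wild type for each of the 10 genes, with 95% intervals from limma (3 arrays each), in order of signal from the top. BGLU16, BGLU15 and BGLU46 are the 3 genes with an adjusted p under 0.05, and the interval widens to -0.79 to 1.48 for the dimmest gene, BGLU41.

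The other 12 measured BGLU genes were dim, brighter than 4.95% to 27.7% of probe sets. Their mean signals ran from 2.0 to 14.8, and 6 of the 12 had a value under 1 on at least 1 array. By limma, 0 of the 12 fell and 0 rose, and 0 reached an unadjusted p of 0.05. The genotypes did not overlap for 1 of the 12, BGLU24, which was lower in spy-3. BGLU24 had 7.6, 8.3 and 2.4 in spy-3 and 11.2, 16.2 and 8.7 in wild type. Over all probe sets, 11.5% were lower in spy-3 without overlap. By analysis of variance 0 of the 12 were called after adjustment. Their log2 fold changes, from -1.13 to 2.12, were those of dim signals. For the 6 genes with a value under 1, the floor of 1 set before the log2 conversion also enters. For the other 25 BGLU genes the annotation names no single-gene probe set. They are not analysed here, apart from BGLU21 and BGLU22, whose shared probe set is described under the other observations.

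Genes that handle related substrates outside the lists above were also compared. UGT71C5, which attaches glucose to abscisic acid and so makes a substrate of beta-glucosidases, had 142.4, 141.6 and 149.4 in spy-3 and 175.5, 179.7 and 180.8 in wild type. UGT71C5 fell by 0.31 on the log2 scale (limma, adjusted p = 0.0275), but did not pass when any of the 6 arrays was left out (adjusted p from 0.0575 to 0.103). UGT71B6, also of that list of 2, averaged 8.9 ± 5.2 in spy-3 and 6.4 ± 1.7 in wild type (SD, n = 3 each). UGT74B1, a glucosyltransferase of glucosinolate synthesis and the only 1 of 10 listed genes for indole glucosinolates that was measured, had 770.0, 721.2 and 608.8 in spy-3 and 606.7, 542.2 and 494.5 in wild type. Its log2 fold change was 0.35 and did not pass (limma, adjusted p = 0.14). For the 10 genes listed for glucosinolate breakdown and the 8 listed for sulphur and energy limitation, the annotation names no single-gene probe set, and they are not analysed here.

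**Figure D3:**
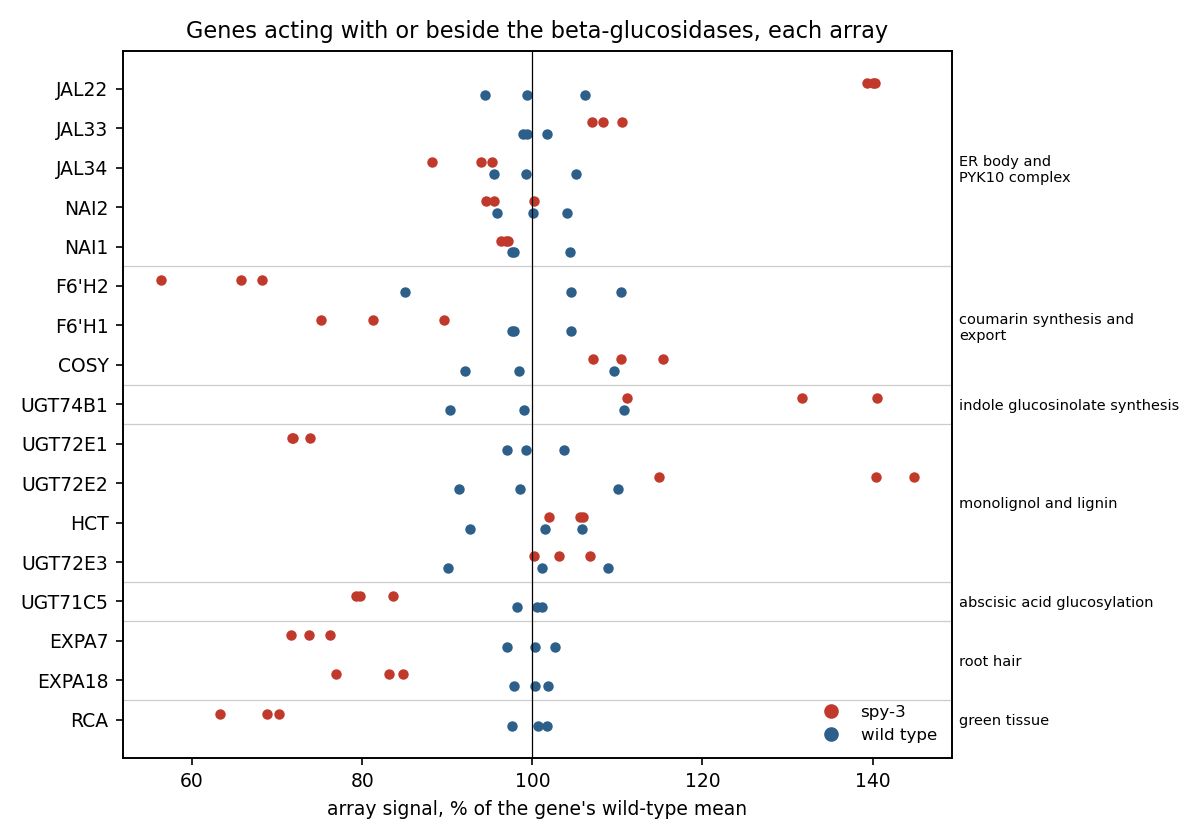
Array signal as a percentage of each gene's wild-type mean on the spy-3 and wild-type arrays, for listed genes with a wild-type mean of at least 50, grouped by list. Of the plotted genes with an adjusted p under 0.05 (limma), JAL22 is higher in spy-3, and F6'H2, UGT72E1, UGT71C5, EXPA7, EXPA18 and RCA are lower. Some genes that did not pass also do not overlap, with UGT72E2, UGT74B1 and JAL33 higher and F6'H1, JAL34 and NAI1 lower.

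Both measured root hair markers, and 1 of 3 measured green tissue markers, fell in spy-3, where 3.13% of all probe sets fell. Of 8 listed root hair genes 2 were measured and both fell. The expansin EXPA7 averaged 695.4 ± 21.2 in spy-3 and 941.1 ± 26.6 in wild type, and EXPA18 averaged 967.6 ± 49.4 in spy-3 and 1185.7 ± 23.7 in wild type (SD, n = 3 each; adjusted p from limma 0.00274 for EXPA7 and 0.018 for EXPA18). The summed signal of these root hair genes was 1586.3 to 1702.8 in spy-3 and 2073.9 to 2155.1 in wild type. EXPA18 did not pass without spy-3 replicate 2 or wild type replicate 1, 2 or 3 (adjusted p up to 0.0853). Of 10 listed green tissue genes 3 were measured and 1 fell, with a summed signal of 293.5 to 326.6 in spy-3 and 436.5 to 478.6 in wild type. The gene that fell was RCA, Rubisco activase, with 289.6 ± 15.6 in spy-3 and 429.3 ± 9.3 in wild type (SD, n = 3 each; limma, adjusted p = 0.0027). PRK and SBPASE of the same list were dim, with averages of 8.4 and 10.5 in spy-3 and 6.6 and 23.4 in wild type. With no trend in limma F6'H2, UGT71C5 and EXPA18 were not called, and by analysis of variance F6'H2 and EXPA18 were not. No marker of either list was under 1 on all arrays. The part of these cell types in the lower beta-glucosidase signals was not tested.

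**Figure D4:**
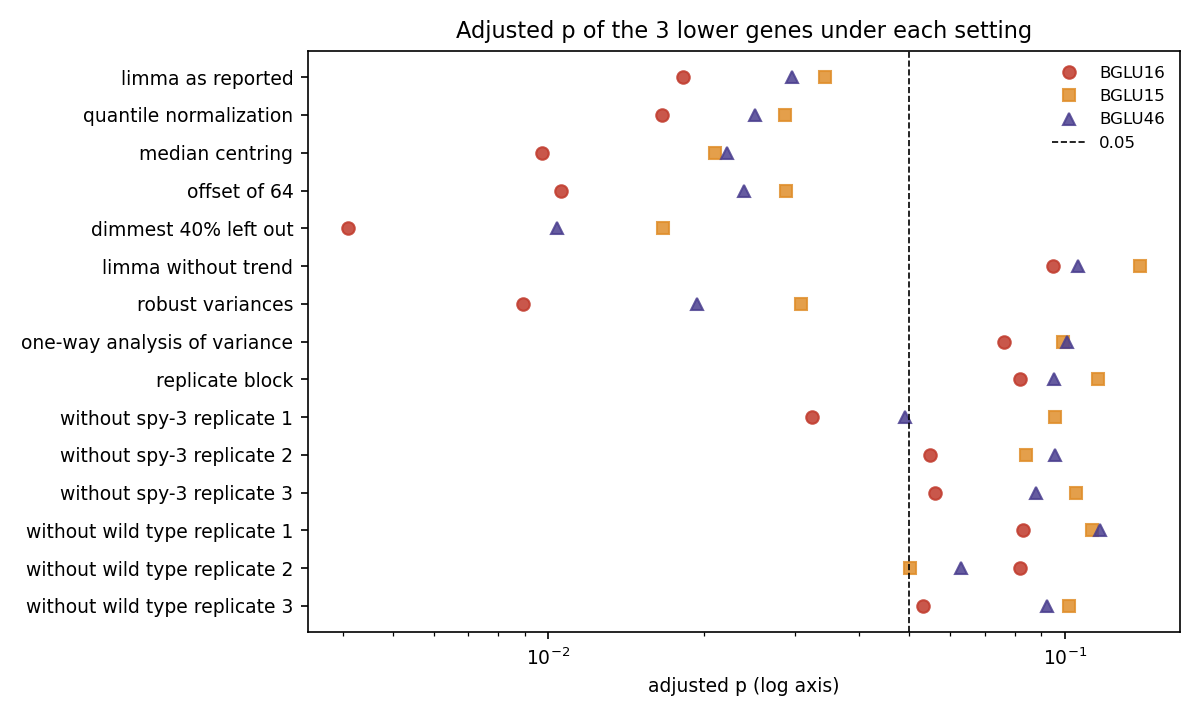
Adjusted p (log axis) of BGLU16, BGLU15 and BGLU46 in the fit as reported and under 14 other settings, with a dashed line at 0.05. All 3 genes lie left of the line under quantile normalization, median centring, an offset of 64, robust variances and with the dimmest 40% left out, and BGLU15 lies right of it in each omission of an array.

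The log2 signal of PYK10 over the 6 arrays was compared with 6005 single-gene probe sets of above-median signal. The genes that followed it most closely were AT5G35735, NIH (AT1G06670) and AT5G67130, with Pearson coefficients of 0.994, 0.987 and 0.978. After the mean of each genotype was subtracted, the closest were AT2G24170, AT3G46540 and AT5G35735, each with a coefficient of 0.998. With 6 arrays and this many probe sets, high coefficients are a description only. The resemblance follows a high value on spy-3 replicate 1, where AT5G35735 had 491.6, against 422.2 and 434.4 on the other spy-3 arrays and 427.4 to 461.7 in wild type.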

How the data were processed

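RNA of whole roots was hybridised to 6 one-colour ATH1 arrays, 3 for spy-3 and 3 for wild type, described as biological replicates. Whether they were harvested separately is unstated, and the p-values cover only this spread between arrays, which may be technical. The authors deposited linear intensity signals from MAS5, the tool in the submitters' processing notes, whose version is not given in the sources. Before log2 conversion, values below 1 were raised to 1. The fit used limma 3.58.1 under R 4.3.3, by lmFit and eBayes with trend, and was tested on simulated data. An exact permutation test of 3 against 3 arrays cannot give a p under 0.1. Tables were handled with Python 3.11.15 and pandas 2.3.3.

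Of 13513 probe sets with 1 gene in the platform annotation, 13436 matched a RefSeq gene (TAIR10.1, for names and neighbours only), giving 13286 loci. No BGLU gene had more than 1 such probe set. Members and gene lists were chosen with earlier results of these data known, and the lists come from textbook knowledge. All 10 members are named, with the 2 BGLU genes just outside, chromosomal neighbours (added after values were seen), every measured gene of a list with at most 5, otherwise the 4 of lowest adjusted p (NAI1 and NAI2 were added), and the 3 genes most like PYK10. Alternatives covered the normalization between arrays, the offset, dim probe sets, the variance model, analysis of variance, thresholds, a replicate block and the omission of each array. No pairing of the arrays by replicate number was seen, though so few arrays cannot exclude it. The number of arrays limits the precision.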

Additional observations from a re-analysis of the deposited data

How the results depend on the processing

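BGLU16, BGLU15 and BGLU46 stayed lower in spy-3 under all 14 alternatives, with log2 fold changes of -0.33 to -0.26 for BGLU16, -0.28 to -0.22 for BGLU15 and -0.37 to -0.28 for BGLU46. With an offset of 64 the log2 fold changes of the uncalled BGLU44 and BGLU45 were -0.26 and -0.15, against -0.58 and -0.30 as reported. All 3 were called under quantile normalization, median centring, an offset of 64, the dimmest 40% left out and robust variances. The number of members called lower was 0 in limma without the trend, by the one-way analysis of variance and at an adjusted p of 0.01 with a fold change of 1.5, and 0 to 2 with an array left out. The number called higher was 0 throughout. Over all probe sets, 374 were lower and 268 higher in limma without the trend, 371 and 287 by the analysis of variance, and 182 and 99 at the stricter thresholds. With an array left out, 312 to 496 were lower and 203 to 377 higher. The cause of these differences was not tested, apart from the fewer arrays in each omission.

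Deviations from the genotype means correlated at 0.176, -0.147 and 0.182 between arrays of the same replicate number, for the numbers 1, 2 and 3. Between arrays of different numbers they correlated at -0.341 to 0.253. No pairing by number was seen, and 3 arrays of each genotype are too few to exclude it. With the replicate number as a block, 0 members were lower and 0 higher, and 391 probe sets were lower and 265 higher.

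Directions turned for uncalled members. With an array left out, the log2 fold change ran from -0.095 to 0.031 for PYK10 (BGLU23), from -0.085 to 0.0049 for BGLU25, from -0.10 to 0.037 for BGLU42, from -0.20 to 0.29 for BGLU40 and from -0.051 to 0.65 for BGLU41. It was above 0 without spy-3 replicate 2, spy-3 replicate 3 or wild type replicate 1 for PYK10, without wild type replicate 3 for BGLU25, without spy-3 replicate 1 for BGLU42, and without spy-3 replicate 1 or wild type replicate 2 or 3 for BGLU40, and below 0 without wild type replicate 2 for BGLU41. With an offset of 64 it was 0.003 for BGLU40. BGLU40 and BGLU41 give no value with the dimmest 40% left out. No BGLU gene had another probe set of its own, so that alternative was not run.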

Other observations

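BGLU21 and BGLU22, close paralogs of PYK10 that cleave scopolin in roots, share a probe set and were therefore not among the 10 genes. This probe set had signals of 6011.0, 5319.3 and 4724.9 in spy-3 and 5517.0, 5626.9 and 4656.3 in wild type, at rank 130 of all probe sets. The genotypes overlapped, with a log2 fold change of 0.02 and a 95% interval of -0.25 to 0.29 (adjusted p = 0.952 from limma). Its probes cannot tell the paralogs apart.

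The array of spy-3 replicate 1 held the lowest of the 6 values for 5 of the 10 beta-glucosidase genes (BGLU16, BGLU25, BGLU15, BGLU42 and BGLU40), and the highest for PYK10 and for the shared probe set of BGLU21 and BGLU22. Over the 16199 probe sets at least as bright as the dimmest of the 10, that array held the lowest value in 17.6% and the highest in 18.3%. Without it, BGLU16 and BGLU46 were still called lower by limma, and BGLU15 was not (adjusted p = 0.0959).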
